A study of Mus musculus with 72 samples.

Results

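Amino acid transporters are the membrane proteins that move amino acids into and out of cells. The 10 genes described here are Slc7a1, Slc7a2, Slc3a2, Slc7a5, Slc38a2, Slc38a3, Slc38a4, Slc1a2, Slc43a1 and Slc16a10, carriers of the plasma membrane chosen by name, with earlier results of these data known. They are 10 of the 51912 genes of the count table, where each was found by the Ensembl identifier that the authors' comparison table pairs with its symbol. All 10 passed the filter on low counts, as did 19362 genes in all.

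The liver receives dietary amino acids through the portal vein and takes them up for protein synthesis, for glucose synthesis and for breakdown, with the nitrogen leaving as urea or glutamine. Cationic amino acids, small neutral amino acids, glutamine, glutamate and the large neutral and aromatic amino acids enter or leave by different carriers, and some of these carriers lie in hepatocytes near the portal vein while others lie near the central vein. Several transporter genes, Slc7a1, Slc38a2, Slc3a2 and Slc7a5 among them, are known targets of the amino acid response, in which scarcity of amino acids raises the transcription factor ATF4.

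Livers came from mice of the inbred strains DBA/2J and C57BL/6J, titled M or F, that were fed a Low Protein, a Medium Protein or a Control diet. The protein content of the diets was not stated in the labels used here. Feeding began at 10 weeks of age and lasted 13 weeks at about 22 °C, so that every group was 23 weeks old, and every animal was fasted for 16 h before its liver was frozen. The 12 combinations of strain, sex and diet held 6 livers each, 72 libraries of stranded polyA RNA with 26.9 to 38.4 M estimated reads, and no genetic change or agent is named for any group.

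Levels are given as CPM, a gene's counts brought to a common library total after TMM correction for library composition. A gene was called where the Benjamini-Hochberg adjusted p of edgeR's quasi-likelihood test was below 0.05 over all 19362 genes, and a value after ± is a standard error (SE) of a log2 fold change unless SD is written. The labels name no cage, litter or day, so these p-values measure the spread between livers as sampled. In whole liver, fewer cells of a type and less RNA per cell cannot be told apart.

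The summed level of 9 hepatocyte markers was 53999 to 108483 CPM over the 72 libraries, so hepatocyte transcripts were abundant in each. Some libraries stood apart. RNA genes that resemble ribosomal RNA took 0.0328 to 15.1% of the counts, and 11 libraries, 3 of them C57BL/6J M Control, held over 3 times the median share. C57BL/6J F Control replicate 1 had a summed level of pericentral markers of 3684 CPM, where its group's median was 8493 CPM. C57BL/6J F Low Protein replicate 1 had the highest macrophage marker sum, 1171 CPM against a group median of 278 CPM. The well-like codes in the labels run in the order of the groups, so position and group cannot be told apart beyond a term for the row letter.

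Per length of exon, the 10 genes spanned a 1912-fold range of median level over the 72 livers. Slc38a4 led with 230.0 CPM per kb, followed by Slc38a3 with 164 and Slc7a2 with 77.9 CPM per kb. A middle tier held Slc1a2 with 15.5, Slc38a2 with 11.7, Slc16a10 with 10.5 and Slc3a2 with 6.03 CPM per kb. The least abundant were Slc43a1 with 1.40, Slc7a5 with 0.516 and Slc7a1 with 0.120 CPM per kb. The carriers at the top serve small neutral, glutamine and cationic amino acids, and the LAT1 and CAT1 genes, which are prominent in many other tissues and in dividing cells, were at the bottom. The lengths are of all annotated exons joined, so a long transcript end that liver does not use would lower a gene's value.

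Across the 12 groups the highest group mean was 1.47 times the lowest for Slc38a4 and for Slc38a3, and up to 3.03 times for Slc43a1, with 2.81 for Slc7a2, 2.42 for Slc16a10 and 1.81 to 2.15 for the others. When the group means of a gene were put in order, the step between neighbours exceeded their pooled SD for 4 of 11 steps in Slc3a2, 2 in Slc7a2 and 1 in Slc1a2. It did so for 0 of 11 in the other 7 genes, whose neighbouring groups did not differ beyond their spread.

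**Figure D1:**
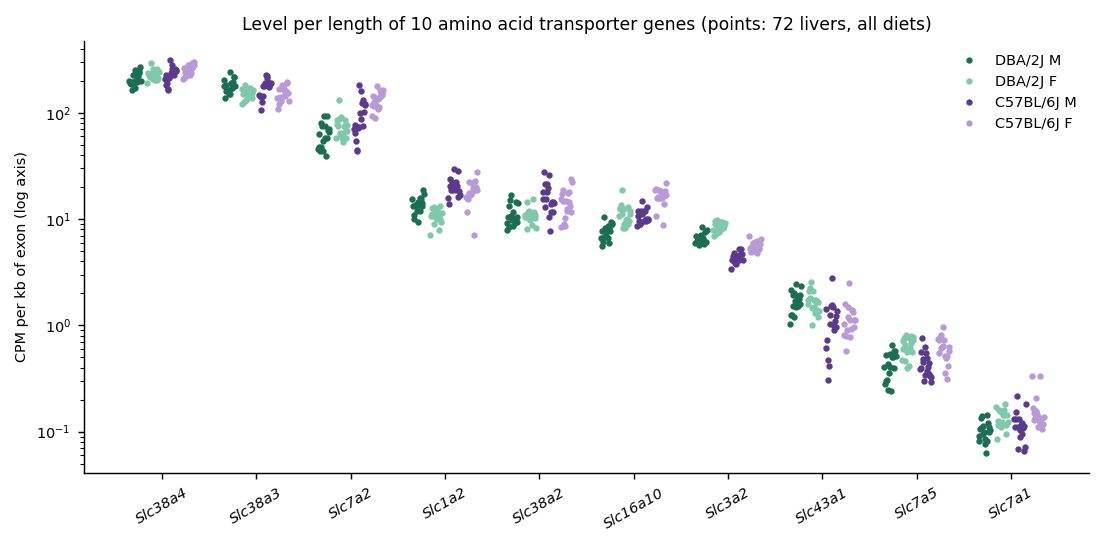
Level of each gene in CPM per kb of exon on a log axis, 1 point per liver, coloured by strain and sex with all diets together. Slc38a4, Slc38a3 and Slc7a2 lie highest, with medians of 230.0, 164 and 77.9 CPM per kb, and Slc7a1 lowest at 0.120.

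Slc7a2, Slc38a3 and Slc38a4, the 3 most abundant of the carriers, fell on the Low Protein diet in C57BL/6J M. No transporter was called higher on that diet in the fit with TMM scaling. These 3 of 10 were called lower against Control in C57BL/6J M livers, where 9.78% of all genes tested were called in either direction. Averaged over the 4 combinations of strain and sex, the same 3 genes were called lower, beside 8.01% of all genes. That mean was not called for Slc7a2 without the libraries rich in ribosomal-like RNA (edgeR adjusted p = 0.104). In DBA/2J F the log2 fold changes were 0.24 for Slc7a2, -0.05 for Slc38a3 and 0.01 for Slc38a4. Over the 10 genes the median log2 fold change was -0.15 in C57BL/6J M, -0.25 in C57BL/6J F, -0.23 in DBA/2J M and -0.01 in DBA/2J F, and over all genes it lay within 0.01 of 0 in each.

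None of the 10 was called in the other 3 combinations. The background there was 3.25% of genes in C57BL/6J F, 0.093% in DBA/2J M and 0.816% in DBA/2J F. At an unadjusted p below 0.05 edgeR had 4 of the 10 in C57BL/6J F, 2 in DBA/2J M and 1 in DBA/2J F, beside 16.6%, 7.62% and 11.5% of all genes. DESeq2 called 1 member in C57BL/6J F, Slc38a4, and 0 in each DBA/2J comparison, and limma-voom called 0 in all 3. A call in 1 combination and none in another does not show that the responses differ, and the difference itself is tested gene by gene.

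**Figure D2:**
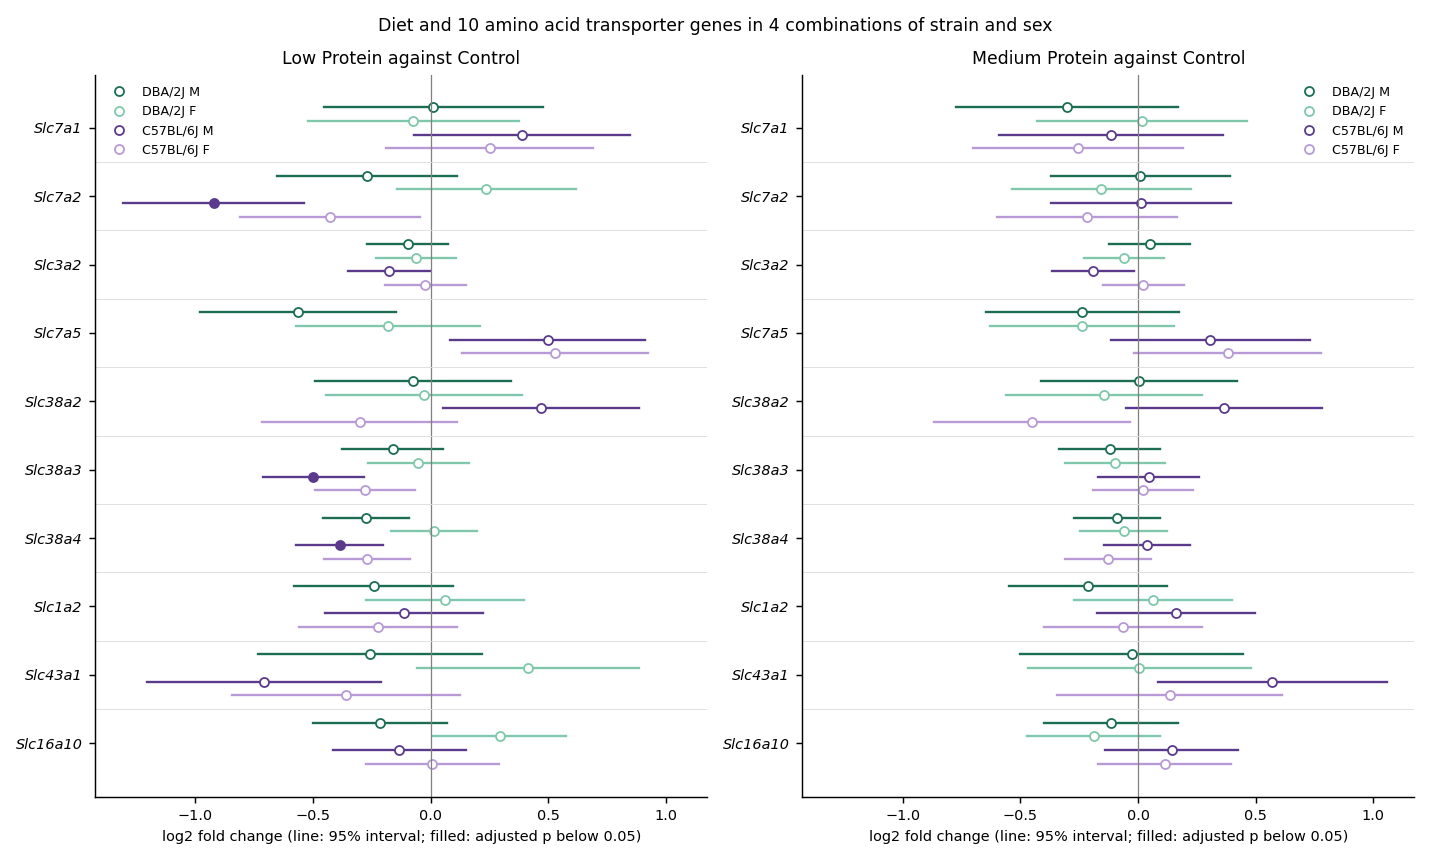
Log2 fold change of each gene on Low Protein (left) and Medium Protein (right) against Control in the 4 combinations of strain and sex; lines are 95% intervals of the edgeR estimate and filled points passed an adjusted p below 0.05. The 3 filled points are Slc7a2, Slc38a3 and Slc38a4 in C57BL/6J M on Low Protein, at -0.92, -0.50 and -0.39, and Slc7a5 lies left of 0 in DBA/2J and right of 0 in C57BL/6J.

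Cationic amino acids, arginine, lysine and ornithine, enter cells through CAT1 and CAT2. CAT2 is encoded by Slc7a2 (ENSMUSG00000031596, chr8:40862396-40922308, + strand; GRCm38 coordinates of the GENCODE M21 annotation here and below) and is the main cationic carrier of hepatocytes, in a liver splice form that gene counts do not separate from the form of other tissues. In C57BL/6J M livers Slc7a2 had 401 to 703 CPM with a median of 540.0 on Low Protein, 658 to 1667, median 859.7 on Medium Protein and 694 to 1209.5, median 1088 on Control. All 6 Low Protein livers lay below the Control median and 5 below the lowest Control liver, 1 Control liver reaching into their range. The log2 fold change against Control was -0.92 ± 0.19 (SE; adjusted p = 0.000607).

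In C57BL/6J F livers Slc7a2 had 812 to 1307 CPM with a median of 1074 on Low Protein, 997 to 1626, median 1157 on Medium Protein and 1284 to 1511, median 1396 on Control. The medians stood in the same order of diets as in M, and 5 of 6 Low Protein livers lay below every Control liver, yet the log2 fold change of -0.43 (95% interval -0.81 to -0.05; adjusted p = 0.227) was not called. DBA/2J M livers had 402 to 733 CPM with a median of 433 on Low Protein, 399.7 to 858, median 605 on Medium Protein and 359 to 861, median 613 on Control, and DBA/2J F livers had 532 to 1201 CPM with a median of 751 on Low Protein, 488 to 839, median 578 on Medium Protein and 533 to 776, median 684 on Control. Both DBA/2J ranges overlapped those on Control, with log2 fold changes of -0.27 (95% interval -0.66 to 0.11; adjusted p = 0.797) in M and 0.24 (95% interval -0.15 to 0.62; adjusted p = 0.722) in F. The difference of the Low Protein effect on Slc7a2, DBA/2J minus C57BL/6J, was 0.65 (95% interval 0.11 to 1.19; adjusted p = 0.191) in M and 0.66 (95% interval 0.12 to 1.20; adjusted p = 0.314) in F, and neither difference was called.

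The mean Low Protein effect over the 4 combinations was -0.35 ± 0.10 (SE; adjusted p = 0.0135) on Slc7a2. It was not called without the 11 libraries rich in ribosomal-like RNA, with a log2 fold change of -0.30 and an adjusted p of 0.104. With a block of the animal codes in the titles, added after the data were seen, it was -0.36 and not called (adjusted p = 0.0858). Among the 12 groups, C57BL/6J F Control had the highest mean, 1404 ± 87.3 CPM, and DBA/2J M Low Protein the lowest, 500.0 ± 130.4 CPM (SD, n = 6 each). The 2 steps beyond the pooled SD were that below C57BL/6J F Control and that between C57BL/6J M Control and DBA/2J F Low Protein.

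Slc7a1 (ENSMUSG00000041313, chr5:148327410-148399904, - strand) encodes CAT1, the cationic carrier of most other tissues, and had 0.720 to 3.88 CPM over all livers. On Low Protein it had 1.26 to 2.51 CPM with a median of 1.51 in C57BL/6J M, against 0.751 to 2.12, median 1.27 on Control. The C57BL/6J F livers had 1.50 to 3.86 CPM with a median of 1.82 on Low Protein, against 1.23 to 3.88, median 1.45 on Control. The highest liver of each of these F groups was replicate 1, the libraries named above for their marker levels. The log2 fold change was 0.39 (95% interval -0.07 to 0.85; adjusted p = 0.32) in C57BL/6J M and 0.25 (95% interval -0.19 to 0.69; adjusted p = 0.626) in C57BL/6J F. DBA/2J M livers had 0.945 to 1.62 CPM with a median of 1.24 on Low Protein, against 0.946 to 1.67, median 1.23 on Control, and DBA/2J F livers had 0.990 to 1.98 CPM with a median of 1.43 on Low Protein, against 1.10 to 2.10, median 1.53 on Control. Livers of both diets were intermixed there, with log2 fold changes of 0.01 in M and -0.07 in F.

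LAT1 (Slc7a5, ENSMUSG00000040010, chr8:121881150-121907694, - strand) exchanges large neutral amino acids such as leucine and phenylalanine, and reaches the membrane only when bound to the heavy chain 4F2hc, also named CD98 (Slc3a2, ENSMUSG00000010095, chr19:8706882-8723369, - strand). The Low Protein effect on Slc7a5 had opposite signs in the strains. In DBA/2J M livers Slc7a5 had 0.913 to 1.95 CPM with a median of 1.13 on Low Protein, 0.900 to 2.40, median 1.55 on Medium Protein and 1.48 to 2.15, median 1.88 on Control. In C57BL/6J M livers it had 1.44 to 2.82 CPM with a median of 1.73 on Low Protein, 1.12 to 2.32, median 1.60 on Medium Protein and 1.08 to 1.65, median 1.27 on Control. On Low Protein 5 of 6 DBA/2J M livers lay below the Control median and 4 below every Control liver, while all 6 C57BL/6J M livers lay above their Control median and 4 above every Control liver.

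Neither change was called by itself, at -0.56 (95% interval -0.98 to -0.15; adjusted p = 0.426) in DBA/2J M and 0.50 (95% interval 0.08 to 0.91; adjusted p = 0.122) in C57BL/6J M. The difference of the effects, DBA/2J minus C57BL/6J in M, was -1.06 ± 0.29 (SE; adjusted p = 0.0314), and Slc7a5 was the only one of the 10 genes called in that contrast, where 2.88% of all genes were called. In F the same difference was -0.71 (95% interval -1.27 to -0.15; adjusted p = 0.286). The effects behind it were -0.18 in DBA/2J F and 0.53 in C57BL/6J F, neither of them called. Slc7a5 had 1.73 to 2.80 CPM with a median of 2.34 on Low Protein in DBA/2J F, against 2.09 to 2.93, median 2.61 on Control. It had 2.02 to 3.02 CPM with a median of 2.74 on Low Protein in C57BL/6J F, against 1.16 to 2.33, median 1.87 on Control. In DBA/2J F 4 of 6 Low Protein livers lay below the Control median, while in C57BL/6J F all 6 lay above it and 4 above every Control liver.

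Counts of Slc7a5 were low and its called difference depended on single livers. It was not called by limma-voom (adjusted p = 0.0501), with no filter on low counts (0.0668) or without the libraries rich in ribosomal-like RNA (0.0844). Leaving out 1 of 7 livers also ended the call, with adjusted p from 0.0505 to 0.0686: DBA/2J M Low Protein replicates 2, 4 and 6, DBA/2J M Control replicate 3, C57BL/6J M Low Protein replicates 3 and 4, and C57BL/6J M Control replicate 5. Over the 24 fits that left out 1 liver, the log2 difference lay between -1.22 and -0.91.

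No call was made for the heavy chain. Slc3a2 had 11.9 to 16.8 CPM with a median of 15.0 on Low Protein, against 14.5 to 18.4, median 16.6 on Control in C57BL/6J M, the combination with the largest log2 fold change, -0.18 (95% interval -0.35 to -0.0019; adjusted p = 0.211). C57BL/6J F livers had 17.5 to 24.7 CPM with a median of 18.3 on Low Protein, against 16.9 to 22.7, median 19.7 on Control. DBA/2J M livers had 19.9 to 24.2 CPM with a median of 21.7 on Low Protein, against 20.6 to 28.1, median 22.5 on Control, and DBA/2J F livers had 24.7 to 34.7 CPM with a median of 30.1 on Low Protein, against 29.1 to 32.9, median 31.5 on Control. The ranges overlapped in each, with log2 fold changes of -0.02, -0.10 and -0.06 in that order of groups. Slc3a2 varied little within groups, with a median coefficient of variation of 9.53% over the 12 groups, where Slc7a5 had 25.4%. Within groups no relation between the chains was detected, with Pearson r = 0.08 and Spearman rho = 0.17 over 72 livers (adjusted p = 0.773 and 0.286, two-sided permutation test).

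The SLC38 family supplies sodium-coupled carriers of small neutral amino acids. SNAT3 (Slc38a3, ENSMUSG00000010064, chr9:107650634-107669530, - strand) is the system N carrier of glutamine, histidine and asparagine in liver, and works in either direction. In C57BL/6J M livers Slc38a3 had 559 to 772 CPM with a median of 751 on Low Protein, 938 to 1193, median 990.1 on Medium Protein and 932 to 1119.6, median 1003 on Control. Every Low Protein liver lay below every Medium Protein and every Control liver. Slc38a3 was the only one of the 10 whose Low Protein and Control livers did not overlap in C57BL/6J M, as was so for 4.74% of all genes. The log2 fold change against Control was -0.50 ± 0.11 (SE; adjusted p = 0.000836), and means were 712 ± 83.2 CPM on Low Protein and 1007 ± 67.9 CPM on Control (SD, n = 6 each).

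C57BL/6J F livers had 577 to 883 CPM with a median of 707 on Low Protein, 733 to 974, median 887 on Medium Protein and 676 to 1036, median 827 on Control. Of these, 5 of 6 Low Protein livers lay below the Control median, with the ranges overlapping and a log2 fold change of -0.28 (95% interval -0.49 to -0.07; adjusted p = 0.141). DBA/2J M livers had 732 to 1086 CPM with a median of 906 on Low Protein, against 904 to 1157, median 981 on Control, and DBA/2J F livers had 642 to 969 CPM with a median of 805 on Low Protein, against 726 to 896, median 835 on Control. The log2 fold changes there, -0.16 (95% interval -0.38 to 0.05; adjusted p = 0.772) in M and -0.05 (95% interval -0.27 to 0.16; adjusted p = 0.921) in F, were nearer 0 than in C57BL/6J, but the difference between strains was not called in M (0.34, 95% interval 0.03 to 0.64, adjusted p = 0.237) or in F (0.23, 95% interval -0.08 to 0.53, adjusted p = 0.616). The mean over the 4 combinations was -0.25 ± 0.05 (SE; adjusted p = 0.00133).

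SNAT4 (Slc38a4, ENSMUSG00000022464, chr15:96994820-97055956, - strand) carries small neutral and, weakly, cationic amino acids, is largely a liver carrier, and in mice is imprinted in fetal tissues. Its gene lies on the same chromosome as that of SNAT2. The promoter that RefSeq (GRCm38.p6) gives at the 5′ end of the annotated gene is printed as a start site region of the most abundant of the 3 genes that fell. RefSeq also gives Slc38a4 promoters at chr15:97020310-97020609 and chr15:97031164-97031463, and which of them liver uses was not tested. The printed window spans chr15:97055907-97056206 on the minus strand, 250 bases before the start to 50 after it, 5′ to 3′. Capitals mark GGGCGG (the GC box) and CCAAT or its reverse complement ATTGG (the CCAAT box).
Slc38a4 promoter: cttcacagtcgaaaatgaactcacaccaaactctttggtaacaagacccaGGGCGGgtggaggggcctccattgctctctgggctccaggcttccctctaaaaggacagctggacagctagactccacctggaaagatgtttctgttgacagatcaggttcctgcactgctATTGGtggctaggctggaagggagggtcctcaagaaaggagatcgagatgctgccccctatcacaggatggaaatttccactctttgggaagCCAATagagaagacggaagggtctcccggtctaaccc
The window held 2 matches to CCAAT and 1 to GGGCGG, counting both strands, and none of them overlapped another. Of 32851 mouse promoters of the same length, 37.4% held CCAAT and 35.7% held GGGCGG. The core of the amino acid response element, TGATGNAA, was in 3.97% of those promoters and the cyclic AMP response element, TGACGTCA, in 1.79%. Neither was in any of the 10 promoters that the table gives for 7 of the transporters, Slc7a1, Slc3a2, Slc38a2, Slc38a4, Slc1a2, Slc43a1 and Slc16a10, which says only that these letters are not in those windows. Slc7a2, Slc7a5 and Slc38a3 had no entry in the table.

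Slc38a4 in C57BL/6J M livers had 699.8 to 967 CPM with a median of 791 on Low Protein, 909 to 1329, median 1057 on Medium Protein and 962 to 1092, median 1076 on Control. All 6 Low Protein livers lay below the Control median and 5 below every Control liver. The log2 fold change was -0.39 ± 0.09 (SE; adjusted p = 0.00273). It was -0.27 (95% interval -0.46 to -0.09; adjusted p = 0.0854) in C57BL/6J F, where the livers had 892 to 1134 CPM with a median of 964 on Low Protein, against 1020.2 to 1272, median 1216 on Control, 4 of 6 on Low Protein lying below every Control liver. That F change was called without C57BL/6J F Control replicate 1 (adjusted p = 0.0472).

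For Slc38a4 the DBA/2J M livers had 705 to 847 CPM with a median of 823 on Low Protein, against 829 to 1149.8, median 981 on Control. All 6 lay below the Control median and 4 below every Control liver, with a log2 fold change of -0.28 (95% interval -0.46 to -0.09; adjusted p = 0.343) that was not called. In DBA/2J F, Slc38a4 had 821 to 1255 CPM with a median of 969 on Low Protein, against 867 to 1100.2, median 1000.3 on Control. The ranges overlapped there and the log2 fold change was 0.01 (95% interval -0.17 to 0.20; adjusted p = 0.981). The mean over the 4 combinations was -0.23 ± 0.05 (SE; adjusted p = 0.000477). The Low Protein effect on Slc38a4 was not called as different between DBA/2J and C57BL/6J (0.11 in M, 0.28 in F) or between M and F (-0.29 in DBA/2J, -0.12 in C57BL/6J).

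SNAT2 (Slc38a2, ENSMUSG00000022462, chr15:96687392-96699730, - strand) is the small neutral amino acid carrier whose transcript rises in many cells when amino acids are scarce. Slc38a2 in C57BL/6J M livers had 114 to 245 CPM with a median of 149 on Low Protein, 68.7 to 231, median 166 on Medium Protein and 103 to 128, median 124 on Control. Of 6 Low Protein livers, 5 exceeded every Control liver, but the log2 fold change of 0.47 (95% interval 0.05 to 0.88; adjusted p = 0.154) was not called. The Control livers were close together there, with a coefficient of variation of 10.2%, and the Medium Protein livers were spread the most, at 40.3%. C57BL/6J F livers had 74.5 to 166 CPM with a median of 133 on Low Protein, against 103 to 209, median 143 on Control, a log2 fold change of -0.30 (95% interval -0.72 to 0.11; adjusted p = 0.498). The difference of these effects, M minus F, was 0.77 (95% interval 0.18 to 1.36; adjusted p = 0.118). DBA/2J M livers had 69.1 to 135 CPM with a median of 87.3 on Low Protein, against 81.0 to 127, median 91.0 on Control, and DBA/2J F livers had 71.7 to 128 CPM with a median of 96.3 on Low Protein, against 73.1 to 136, median 98.5 on Control. The diets overlapped in DBA/2J, with log2 fold changes of -0.07 in M and -0.03 in F.

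GLT-1 (Slc1a2, ENSMUSG00000005089, chr2:102658659-102790784, + strand) takes up glutamate and in liver lies in the last hepatocytes before the central vein, which also hold glutamine synthetase (Glul). No diet comparison of Slc1a2 was called. On Low Protein it had 183 to 312 CPM with a median of 247 in C57BL/6J M, against 213 to 369, median 256 on Control. C57BL/6J F livers had 153 to 297 CPM with a median of 211 on Low Protein, against 93.3 to 366, median 261 on Control. The low value of 93.3 CPM is Control replicate 1, the liver with the low pericentral markers. Log2 fold changes were -0.11 (95% interval -0.45 to 0.22; adjusted p = 0.744) in C57BL/6J M and -0.22 (95% interval -0.56 to 0.11; adjusted p = 0.548) in C57BL/6J F. DBA/2J M livers had 131 to 201 CPM with a median of 176 on Low Protein, against 156 to 249, median 194 on Control, and DBA/2J F livers had 93.7 to 170.3 CPM with a median of 145 on Low Protein, against 103 to 174, median 138 on Control. Their log2 fold changes were -0.24 in M and 0.06 in F, with overlapping ranges.

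Within groups, Slc1a2 moved with Glul. Across 72 livers, as deviations from the 12 group means, Pearson r was 0.72 and Spearman rho 0.53 (adjusted p = 0.00012 and 0.00028 over 8 pairs, two-sided permutation within groups, 100000 resamples). Leaving out the 2 livers farthest from the median of Slc1a2, C57BL/6J F Control replicate 1 and DBA/2J F Low Protein replicate 1, left r = 0.60. The first of these had 179 CPM of Glul, where its group's median was 757 CPM. Slc38a3, which is also described near the central vein, had r = -0.01 with Glul (adjusted p = 0.941, permutation).

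Slc7a2 moved with Arg1, the arginase of the urea cycle, with r = 0.61 and rho = 0.52 within groups (adjusted p = 8e-05 and 0.00024, permutation; raw p for r = 1e-05, the smallest these permutations can give). Without the 2 farthest livers r was 0.55. With the asparagine synthetase gene Asns, a target of ATF4, r was 0.39 for Slc7a1 (adjusted p = 0.0408, permutation) and 0.16 without C57BL/6J F Control replicate 1 and C57BL/6J F Low Protein replicate 1, so that relation rests on those livers. Its rho was 0.24 (adjusted p = 0.172, permutation). The r with Asns was 0.24 for Slc38a2, 0.05 for Slc3a2 and 0.06 for Slc7a5, with adjusted p of 0.209 or more by the permutation test. Asns was scarce in many groups, with medians of 0.0504 to 0.117 CPM in DBA/2J F and 0.396 to 0.580 CPM in DBA/2J M. In C57BL/6J F they were 0.235 CPM on Medium Protein and 0.256 CPM on Control. Deviations at such low counts are imprecise, so a relation that was not detected with Asns decides little.

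**Figure D3:**
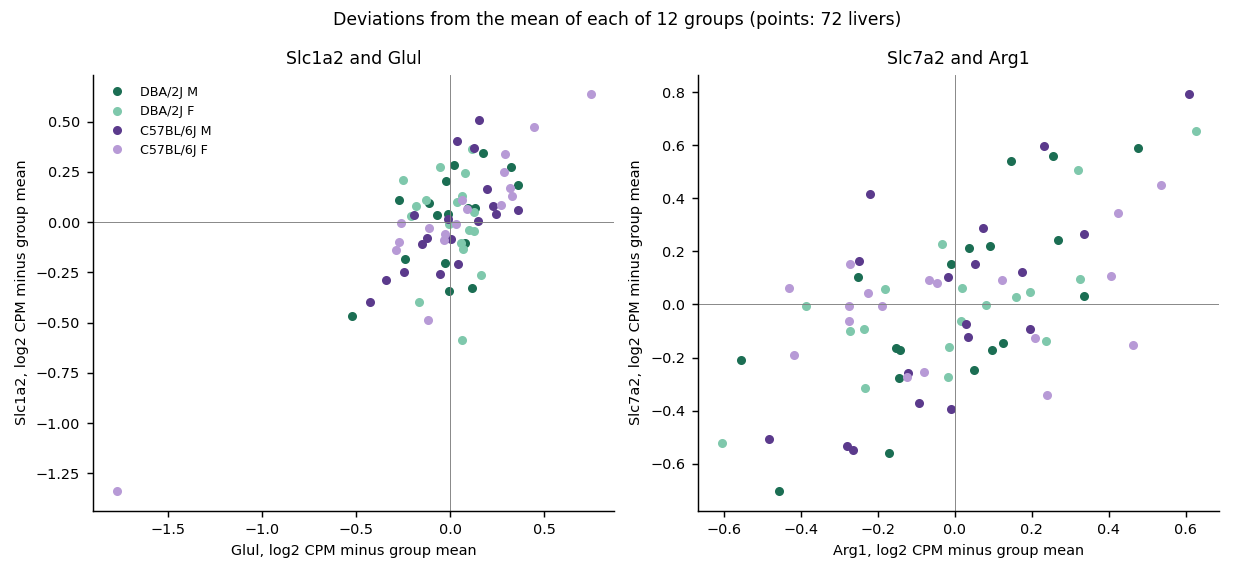
Each liver's log2 CPM minus the mean of its group, for Slc1a2 against Glul (left) and Slc7a2 against Arg1 (right), coloured by strain and sex. The point far to the lower left on the left is C57BL/6J F Control replicate 1; r was 0.72 on the left and 0.61 on the right.

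LAT3 (Slc43a1, ENSMUSG00000027075, chr2:84838850-84863594, + strand) is a facilitator of branched-chain and other large neutral amino acids. Slc43a1 in C57BL/6J M livers had 1.75 to 8.23 CPM with a median of 3.10 on Low Protein, 5.94 to 16.1, median 8.62 on Medium Protein and 5.21 to 7.74, median 5.97 on Control. On Low Protein 5 of 6 livers lay below every Control liver, and replicate 2 lay above them all. The log2 fold change against Control was -0.71 (95% interval -1.21 to -0.21; adjusted p = 0.0561), and without that liver it was -1.10 and called (adjusted p = 0.00123). DESeq2 and limma-voom called it with all livers in (adjusted p = 0.0333 and 0.031), and the authors' deposited table gives it -0.86 with an adjusted p of 0.0314. Against Medium Protein the log2 fold change was -1.28 ± 0.25 (SE; adjusted p = 0.000298).

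Elsewhere Slc43a1 gave no call on diet. C57BL/6J F livers had 3.29 to 9.14 CPM with a median of 4.87 on Low Protein, against 5.48 to 7.96, median 7.04 on Control, DBA/2J M livers had 5.89 to 12.4 CPM with a median of 7.97 on Low Protein, against 8.62 to 13.5, median 10.1 on Control, and DBA/2J F livers had 9.00 to 14.8 CPM with a median of 11.1 on Low Protein, against 6.88 to 9.97, median 8.76 on Control. In DBA/2J F all 6 Low Protein livers exceeded the Control median and 4 exceeded every Control liver. The log2 fold changes were -0.36 (95% interval -0.84 to 0.13; adjusted p = 0.488), -0.26 (95% interval -0.73 to 0.22; adjusted p = 0.867) and 0.41 (95% interval -0.06 to 0.88; adjusted p = 0.524) in that order of groups. It varied most within a group in C57BL/6J M Low Protein, with a coefficient of variation of 61.8%.

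TAT1 (Slc16a10, ENSMUSG00000019838, chr10:40033532-40142258, - strand) is a facilitator of the aromatic amino acids phenylalanine, tyrosine and tryptophan. Low Protein and Control livers overlapped in every combination. Slc16a10 had 63.3 to 86.9 CPM with a median of 68.4 on Low Protein, against 70.1 to 95.1, median 73.7 on Control in C57BL/6J M, and 78.7 to 138 CPM with a median of 92.7 on Low Protein, against 66.7 to 96.6, median 78.3 on Control in DBA/2J F. C57BL/6J F livers had 78.2 to 142 CPM with a median of 119 on Low Protein, against 64.7 to 163, median 123 on Control, and DBA/2J M livers had 41.5 to 76.3 CPM with a median of 49.3 on Low Protein, against 44.0 to 68.9, median 65.4 on Control. Its log2 fold change was -0.13 (95% interval -0.42 to 0.15; adjusted p = 0.632) in C57BL/6J M, 0.01 in C57BL/6J F, -0.21 in DBA/2J M and 0.29 (95% interval 0.01 to 0.58; adjusted p = 0.408) in DBA/2J F. In DBA/2J F all 6 Low Protein livers exceeded the Control median, and replicate 6 of Low Protein was the highest.

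**Figure D4:**
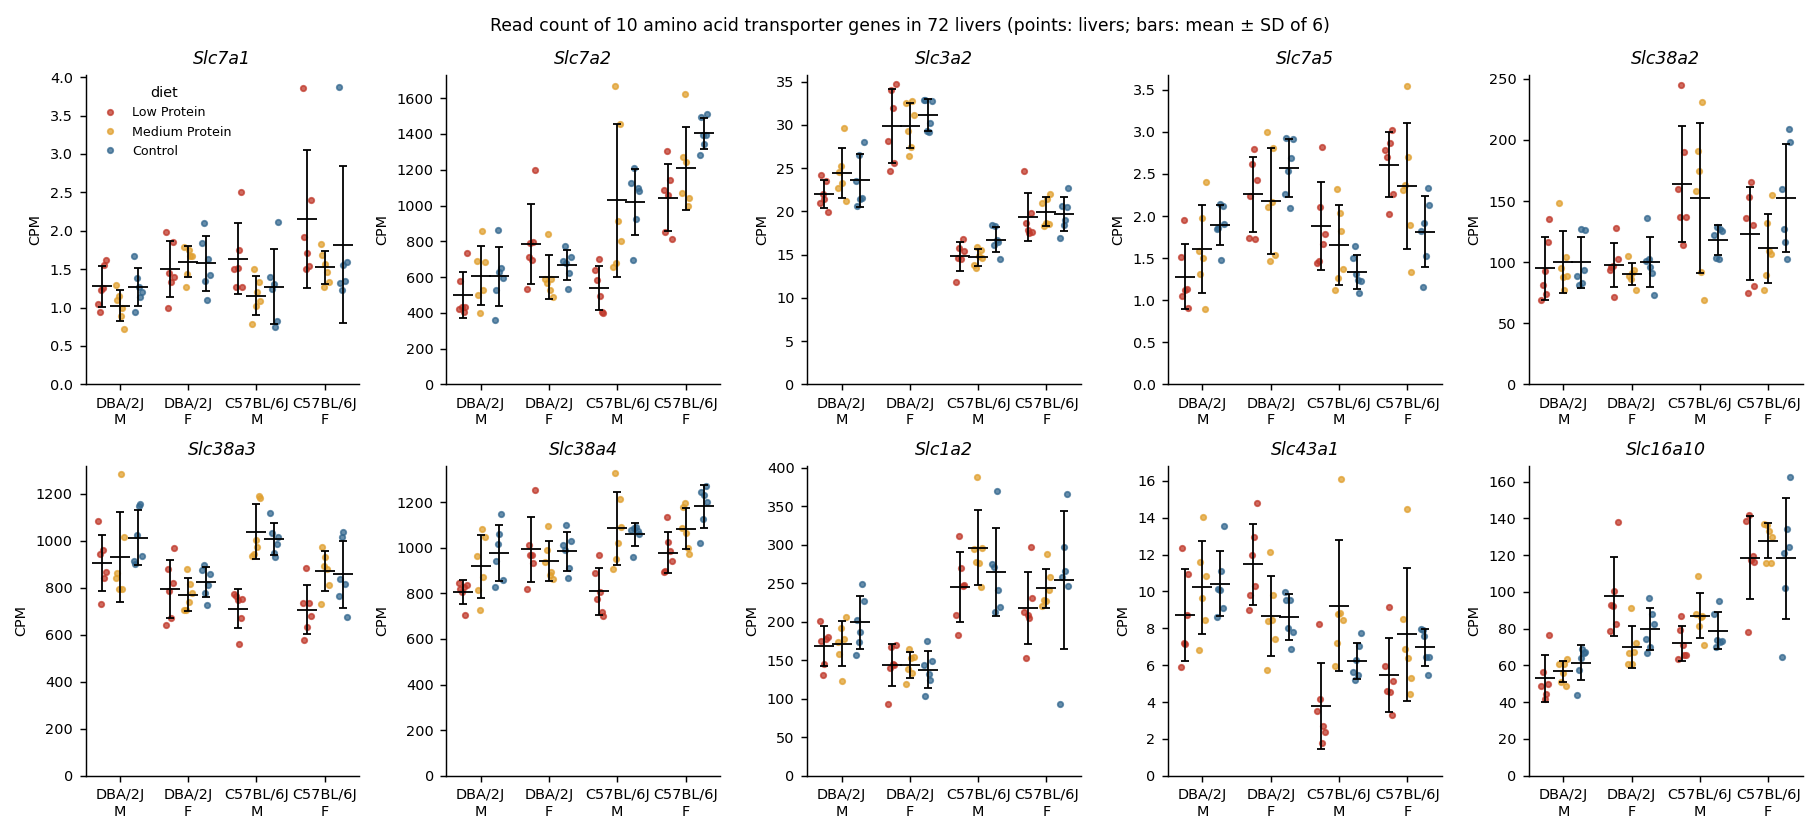
CPM of each gene in each liver by strain, sex and diet, with bars for the mean and SD of the 6 livers of a group and axes from 0. In C57BL/6J M the Low Protein livers have the lowest means of the 3 diets for Slc7a2, Slc38a3 and Slc38a4, at 539, 712 and 809 CPM, and the group means of Slc3a2 are higher in DBA/2J than in C57BL/6J on every diet.

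The Medium Protein diet gave no call among the 10 genes against Control by edgeR, limma-voom or DESeq2. The background was 0.418% of all genes in C57BL/6J M, 0% in C57BL/6J F, 0.00516% in DBA/2J M, 0.00516% in DBA/2J F and 0% for the mean of the 4. At an unadjusted p below 0.05 edgeR had 2 members in C57BL/6J M, Slc43a1 at 0.57 and Slc3a2 at -0.19, and 1 in C57BL/6J F, Slc38a2 at -0.45, beside 10.2% and 7.57% of all genes, and 0 in DBA/2J M and DBA/2J F, beside 3.97% and 2.67%. The 3 genes lowered on Low Protein had mean Medium Protein effects of -0.09 (95% interval -0.28 to 0.10; adjusted p = 1) for Slc7a2, -0.04 (95% interval -0.14 to 0.07; adjusted p = 1) for Slc38a3 and -0.06 (95% interval -0.15 to 0.03; adjusted p = 0.997) for Slc38a4. In C57BL/6J M their Medium Protein effects were 0.01, 0.05 and 0.04.

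Against Medium Protein, 4 of the 10 were called lower on Low Protein in C57BL/6J M, beside 6.53% of all genes. They were Slc43a1, Slc7a2 at -0.93 ± 0.19 (SE; adjusted p = 0.0007), Slc38a3 at -0.55 ± 0.11 (SE; adjusted p = 0.000386) and Slc38a4 at -0.43 ± 0.09 (SE; adjusted p = 0.00126). A fit to the 2 groups compared called only Slc38a3, with adjusted p of 0.0603 for Slc7a2, 0.0716 for Slc38a4 and 0.0617 for Slc43a1, and with library totals Slc38a4 was not called (0.0663). None was called in C57BL/6J F (1.94% of all genes), DBA/2J M (0%) or DBA/2J F (0.0413%), by edgeR, limma-voom or DESeq2, where 3, 1 and 2 members had an unadjusted edgeR p below 0.05, beside 14.2%, 5.7% and 7.61% of all genes. The Low Protein livers enter both this comparison and that with Control, so their results are not independent.

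Apart from Slc7a5 in M, none of the 10 was called for a difference of the Low Protein effect. The background was 0.093% of all genes for DBA/2J minus C57BL/6J in F, 0% for M minus F in DBA/2J and 4.56% for M minus F in C57BL/6J. At an unadjusted p below 0.05 edgeR had 4, 3 and 1 members in these contrasts, beside 11.1%, 7.63% and 18.9% of all genes, and limma-voom and DESeq2 called 0 in each. The intervals were wide. For Slc7a2, M minus F was -0.51 (95% interval -1.05 to 0.03; adjusted p = 0.679) in DBA/2J and -0.50 (95% interval -1.04 to 0.05; adjusted p = 0.312) in C57BL/6J.

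Counts scaled by library totals alone moved the median of all genes by 0.26 (log2) for Low Protein against Control in C57BL/6J M. On that scale Slc38a3 had -0.25 (adjusted p = 0.0779) and Slc38a4 -0.14 (0.242), while relative to the median of all genes they lay at -0.51 and -0.40. Slc7a2 was called there too, at -0.68. Slc7a1, Slc38a2 and Slc7a5 were called higher on that scale, at 0.67, 0.71 and 0.74. It also turned the balance of all calls, with 94.4% of 5652 called genes higher on Low Protein, where TMM scaling gave 790 higher and 1104 lower. Without the libraries rich in ribosomal-like RNA, which removes 3 of the 6 C57BL/6J M Control livers, Slc38a4 was at -0.35 and not called (adjusted p = 0.0735).

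Marker levels of cell types moved in the same comparison, in which 9.78% of all genes were called. Red cell markers, 7 of 8 found in the table, summed to 168 to 478 CPM (median 378) on Low Protein in C57BL/6J M, against 127 to 259 CPM (median 164) on Control, and 4 of the 6 tested, the globin genes Hba-a1, Hba-a2, Hbb-bs and Hbb-bt, were called higher. Pericentral markers summed to 7553 to 9889 CPM (median 8367) on Low Protein, against 9681 to 11377 CPM (median 10235) on Control, with 5 of 13 called lower (Oat, Rhbg, Lect2, Gulo and Rgn). Periportal markers summed to 8039.6 to 10481 CPM (median 9300.4), against 9368 to 15938 CPM (median 13204), with 8 of 12 called lower (Gls2, Sds, Cyp2f2, Hal, Cps1, Ass1, Aldh1b1 and Apof). Several of these are enzymes of amino acid breakdown as well as markers of a zone. No marker of these 3 lists was at 0 in all libraries, and their part in the transporter results was not tested.

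On the Control diet several of the 10 genes were called between the strains, Slc3a2 higher and Slc7a2 and Slc16a10 lower in DBA/2J in both sexes. In M the calls of Slc7a2 and Slc16a10 were lost in some of the alternative fits given below. In DBA/2J against C57BL/6J, 4 of 10 were called in M (2 higher, 2 lower), beside 30.5% of all genes, and 7 of 10 in F (2 higher, 5 lower), beside 27.8% of all genes.

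Slc3a2 had 20.6 to 28.1 CPM with a median of 22.5 in DBA/2J M, against 14.5 to 18.4, median 16.6 in C57BL/6J M. In F it had 29.1 to 32.9 CPM with a median of 31.5 in DBA/2J, against 16.9 to 22.7, median 19.7 in C57BL/6J. Every DBA/2J liver exceeded every C57BL/6J liver of its sex, and the log2 fold changes were 0.49 ± 0.09 (SE; adjusted p = 5.28e-06) in M and 0.66 ± 0.09 (SE; adjusted p = 3.26e-09) in F. Groups did not overlap for 3 of the 10 genes in M, Slc3a2, Slc43a1 and Slc16a10, and for 2 in F, Slc3a2 and Slc7a2, beside 17.0% and 12.4% of all genes.

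Slc7a2 had 359 to 861 CPM with a median of 613 in DBA/2J M, against 694 to 1209.5, median 1088 in C57BL/6J M, a log2 fold change of -0.76 ± 0.19 (SE; adjusted p = 0.00137), and 5 of 6 DBA/2J livers lay below every C57BL/6J liver. In F it had 533 to 776 CPM with a median of 684 in DBA/2J, against 1284 to 1511, median 1396 in C57BL/6J, with no overlap and a log2 fold change of -1.07 ± 0.19 (SE; adjusted p = 8.79e-06). Without the libraries rich in ribosomal-like RNA the M difference was -0.58 and not called (adjusted p = 0.0856). Slc1a2 had 103 to 174 CPM with a median of 138 in DBA/2J F, against 93.3 to 366, median 261 in C57BL/6J F, a log2 fold change of -0.89 ± 0.17 (SE; adjusted p = 2.51e-05). The ranges overlapped through C57BL/6J F Control replicate 1, which lay below every DBA/2J F liver, and the change was -1.05 to -0.75 when 1 liver was left out. In M the difference of Slc1a2 was -0.41 (95% interval -0.75 to -0.08; adjusted p = 0.0544), which was not called. It was called in a fit to the 2 groups compared (0.0334), with a row letter term (0.0316), and without DBA/2J M Control replicate 5 or 6 or C57BL/6J M Control replicate 3 or 6 (adjusted p from 0.0295 to 0.0494).

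Slc16a10 was lower in DBA/2J, with 66.7 to 96.6 CPM with a median of 78.3 in DBA/2J F, against 64.7 to 163, median 123 in C57BL/6J F (-0.57 ± 0.14, adjusted p = 0.00118). The C57BL/6J F livers other than replicate 1 all exceeded the DBA/2J F livers. In M it had 44.0 to 68.9 CPM with a median of 65.4 in DBA/2J, against 70.1 to 95.1, median 73.7 in C57BL/6J (-0.36 ± 0.14, adjusted p = 0.0449), with no overlap. That call was lost with RLE size factors, library totals, no filter on low counts or without ribosomal-like-rich libraries (adjusted p from 0.0536 to 0.177). It was also lost on leaving out DBA/2J M Control replicate 1, 2 or 3 or C57BL/6J M Control replicate 1, 4 or 6 (adjusted p from 0.0545 to 0.147). A block of animal codes ended the call too (adjusted p = 0.0967). Slc43a1 had 8.62 to 13.5 CPM with a median of 10.1 in DBA/2J M, against 5.21 to 7.74, median 5.97 in C57BL/6J M, with no overlap (0.74 ± 0.24, adjusted p = 0.0137). In F its difference was 0.31 (95% interval -0.17 to 0.78; adjusted p = 0.37).

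The remaining calls for strain were in F and were close to the threshold. Slc38a2 had 73.1 to 136 CPM with a median of 98.5 in DBA/2J F, against 103 to 209, median 143 in C57BL/6J F (-0.61 ± 0.21, adjusted p = 0.0218), a call lost without DBA/2J F Control replicate 6 or C57BL/6J F Control replicate 5 or 6 (adjusted p from 0.0649 to 0.0823). Slc38a4 had 867 to 1100.2 CPM with a median of 1000.3, against 1020.2 to 1272, median 1216 (-0.26 ± 0.09, adjusted p = 0.0235), lost without DBA/2J F Control replicate 4 or 5 or C57BL/6J F Control replicate 5 (from 0.0546 to 0.0713), with library totals (0.0831) or with no filter (0.0628). Slc7a5 had 2.09 to 2.93 CPM with a median of 2.61, against 1.16 to 2.33, median 1.87 (0.50 ± 0.20, adjusted p = 0.0483), lost without DBA/2J F Control replicate 2, 3, 5 or 6 or C57BL/6J F Control replicate 1, 2, 3 or 4 (from 0.0567 to 0.148), with no filter (0.0902), with a term for the row letter (0.0609) or without ribosomal-like-rich libraries (0.0543). A block of animal codes also ended the Slc7a5 call (adjusted p = 0.158). For each of these 3 genes, 4 of 6 DBA/2J F livers lay outside the range of the C57BL/6J F livers. In M, Slc7a5 had a difference of 0.51 (95% interval 0.09 to 0.93; adjusted p = 0.0563), not called. It was called by DESeq2 (0.0487), in a fit to the 2 groups compared (0.014), with a row letter term (0.0481), with library totals (0.0204), and without DBA/2J M Control replicate 4 or C57BL/6J M Control replicate 2 (adjusted p = 0.0382 and 0.0396). Slc38a3 had strain differences of 0.01 (95% interval -0.20 to 0.22; adjusted p = 0.96) in M and -0.06 (95% interval -0.27 to 0.16; adjusted p = 0.747) in F.

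Between the sexes on Control, 3 of 10 were called in DBA/2J (2 higher in M, 1 lower), beside 18.3% of all genes, and 2 of 10 in C57BL/6J, lower in M, beside 20.8%. Slc3a2 was lower in M in both strains. In DBA/2J it was -0.40 ± 0.09 (SE; adjusted p = 0.000329), every M liver lying below every F liver. In C57BL/6J it was -0.23 ± 0.09 (SE; adjusted p = 0.0472), 4 of 6 M livers lying below every F liver. The C57BL/6J call was lost on leaving out C57BL/6J M Control replicate 2, 4, 5 or 6 or C57BL/6J F Control replicate 2, 5 or 6 (adjusted p from 0.0703 to 0.146). It was not made by limma-voom (0.073), in a fit to the 2 groups compared (0.0524), with no filter (0.0869), with a row letter term (0.0677) or without ribosomal-like-rich libraries (0.0744).

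Slc16a10 had 70.1 to 95.1 CPM with a median of 73.7 in C57BL/6J M, against 64.7 to 163, median 123 in C57BL/6J F (-0.58 ± 0.14, adjusted p = 0.00171). The ranges overlapped because F replicate 1 was the lowest of the 12 livers. In DBA/2J the difference had the same sign, -0.38 (95% interval -0.66 to -0.09; adjusted p = 0.0549), and was not called. With all livers in, DESeq2 (0.0439), a fit to the 2 groups compared (0.0264), a row letter term (0.0376) and library totals (0.000238) each called it, as did leaving out DBA/2J F Control replicate 2 or 4 (adjusted p = 0.0383 and 0.048). Slc38a3 had 904 to 1157 CPM with a median of 981 in DBA/2J M, against 726 to 896, median 835 in DBA/2J F, with no overlap (0.30 ± 0.11, adjusted p = 0.0415). The call was lost without DBA/2J M Control replicate 3, 4 or 5 or DBA/2J F Control replicate 3, 4 or 5 (adjusted p from 0.0644 to 0.111), and with library totals the log2 fold change was 0.01, while the median of all genes was -0.29. A row letter term (0.068), no filter (0.0944), leaving out ribosomal-like-rich libraries (0.102) and a block of animal codes (0.148) ended it too. In C57BL/6J it was 0.23 (95% interval 0.02 to 0.44; adjusted p = 0.119), called without C57BL/6J F Control replicate 4 (adjusted p = 0.0495).

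Slc1a2 had 156 to 249 CPM with a median of 194 in DBA/2J M, against 103 to 174, median 138 in DBA/2J F, and 4 of 6 M livers exceeded every F liver (0.53 ± 0.17, adjusted p = 0.0186). The call was lost with library totals (0.243), and without DBA/2J M Control replicate 5 or DBA/2J F Control replicate 2 (adjusted p = 0.0622 and 0.0691). In C57BL/6J it was 0.06 (95% interval -0.28 to 0.39; adjusted p = 0.846). Slc7a1 was at -0.54 ± 0.23 (SE; adjusted p = 0.085) in C57BL/6J, not called, and was called lower in M without C57BL/6J M Control replicate 6 (0.0194), C57BL/6J F Control replicate 3 (0.0456) or the ribosomal-like-rich libraries (0.0186), and with library totals (0.000842). Groups of M and F did not overlap for 2 of the 10 genes in DBA/2J, Slc3a2 and Slc38a3, and for 1 in C57BL/6J, Slc7a2, beside 9.03% and 7.25% of all genes. Slc7a2 was lower in every C57BL/6J M liver than in every F liver, yet its log2 fold change of -0.46 (95% interval -0.84 to -0.08; adjusted p = 0.0786) was not called. It was called in a fit to the 2 groups compared (0.0167), with library totals (0.000456) and with a block of animal codes (0.0289). Library totals put Slc7a2 at -0.80 and Slc7a1 at -0.93 in C57BL/6J, where the median of all genes was itself -0.35. The strain and the sex comparisons share the same 4 groups of Control livers and are not independent.

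**Figure D5:**
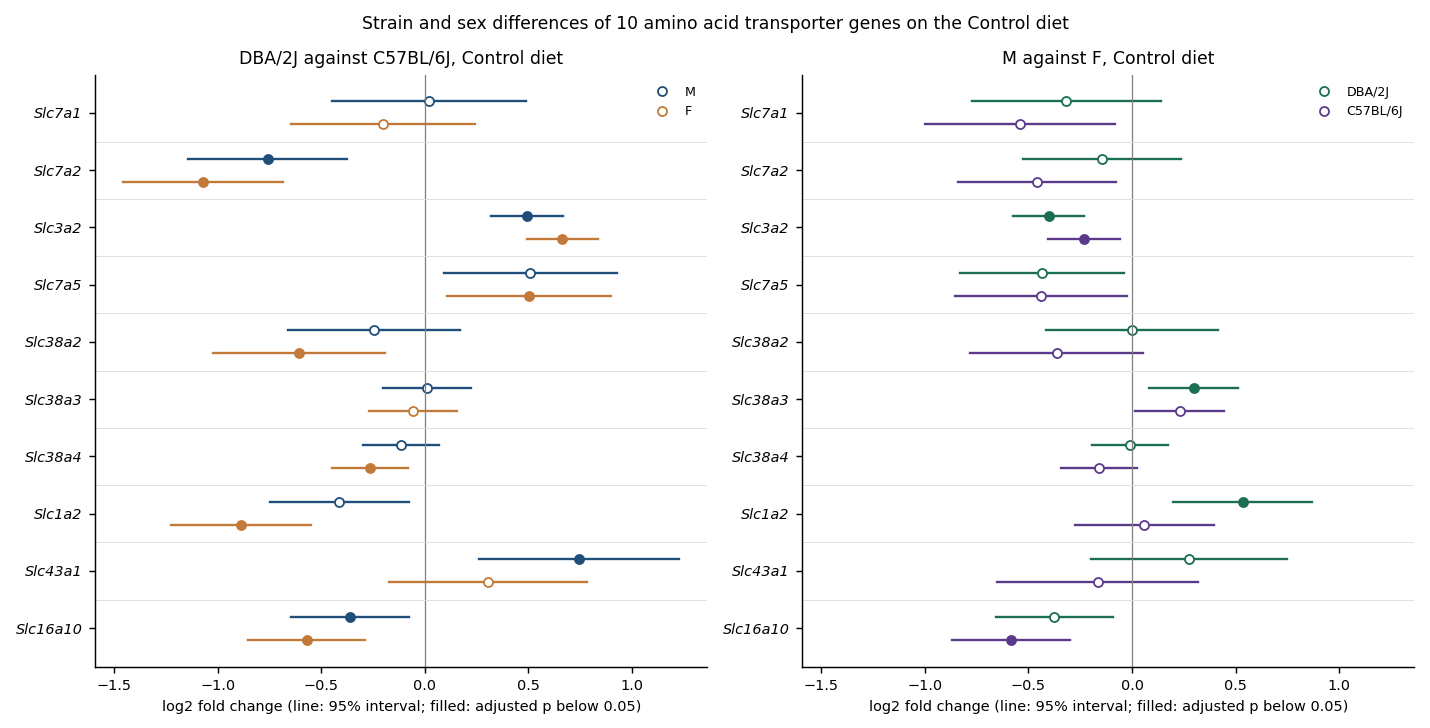
Log2 fold change of each gene on the Control diet for DBA/2J against C57BL/6J in each sex (left) and for M against F in each strain (right); lines are 95% intervals of the edgeR estimate and filled points passed an adjusted p below 0.05. Slc3a2 lies right of 0 for strain, at 0.49 in M and 0.66 in F, and left of 0 for sex, at -0.40 in DBA/2J and -0.23 in C57BL/6J.

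Of 44 other amino acid carriers of the plasma membrane and lysosome, 29 passed the filter on low counts. On Low Protein in C57BL/6J M, 3 were called higher and 2 lower, beside 9.78% of all genes. The higher ones were Slc7a14 (0.90 ± 0.26), Slc7a7 (0.89 ± 0.18), the y+LAT1 light chain of cationic and neutral amino acid exchange, and Ctns (0.23 ± 0.07), the lysosomal cystine exporter. The lower ones were Slc6a12 (-0.57 ± 0.10), the betaine carrier BGT1, and Slc36a1 (-0.56 ± 0.16), the proton-coupled carrier PAT1. In C57BL/6J F, Slc7a15 (-2.01 ± 0.41) and Slc38a7 (-0.50 ± 0.11) were called lower, and none of the 29 was called in either DBA/2J comparison. The shares of all genes called were 3.25% in C57BL/6J F, 0.093% in DBA/2J M and 0.816% in DBA/2J F. Their median log2 fold change was 0.02 in C57BL/6J M, where that of the 10 was -0.15.

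Slc7a7, which like Slc7a5 pairs with the heavy chain 4F2hc, had 2.30 to 3.89 CPM with a median of 3.37 on Low Protein, against 1.06 to 2.32, median 1.66 on Control in C57BL/6J M, 1 Low Protein liver lying just below the highest Control liver. Its mean Low Protein effect over the 4 combinations was 0.44 ± 0.09, the only carrier of the 44 called higher there, beside 8.01% of all genes called in either direction. Slc7a15, Slc1a4 and Slc38a7 were called lower, at -1.05 ± 0.21, -0.51 ± 0.15 and -0.20 ± 0.05, and Slc7a15, a scarce transcript, had 0.228 to 0.748 CPM with a median of 0.411 on Low Protein, against 1.13 to 2.87, median 1.67 on Control in C57BL/6J F.

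Of 9 mitochondrial amino acid carriers, Slc25a18 (0.60 ± 0.21), a glutamate carrier, was called higher and Slc25a15 (-0.44 ± 0.11), the ornithine carrier of the urea cycle, lower on Low Protein in C57BL/6J M. In DBA/2J F, Slc25a15 (0.43 ± 0.11) and Slc25a12 (0.42 ± 0.11) were called higher. Of 30 enzymes of the urea cycle and of amino acid breakdown, 24 were called lower and 0 higher in C57BL/6J M, the largest falls being of Hal (-1.36 ± 0.22), Sds (-1.27 ± 0.32) and Cth (-1.07 ± 0.21), with a list median of -0.58. In DBA/2J F, 5 were called higher and 0 lower, among them Asl (0.93 ± 0.24), Gpt2 (0.81 ± 0.16) and Ass1 (0.79 ± 0.21). In DBA/2J M none was called, and in C57BL/6J F 1 was lower, Gls2 (-0.58 ± 0.16). Of all genes, 9.78% were called in C57BL/6J M, 3.25% in C57BL/6J F, 0.093% in DBA/2J M and 0.816% in DBA/2J F.

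Of 26 genes of the amino acid response, 6 were called higher and 1 lower on Low Protein in C57BL/6J M, beside 9.78% of all genes. Psat1 (4.09 ± 0.58), Asns (3.76 ± 0.60) and Aldh1l2 (3.16 ± 0.43) were the highest, Fgf21 was at 2.00 ± 0.41, Atf4 itself at -0.05 ± 0.13 and Cth, the lower one and also among the enzymes above, at -1.07 ± 0.21. In C57BL/6J F Aldh1l2 (1.83 ± 0.42) was called higher and Cebpg (-0.39 ± 0.10) lower, and none was called in DBA/2J. Shares of all genes called were 3.25% in C57BL/6J F, 0.093% in DBA/2J M and 0.816% in DBA/2J F. The 4 transporter genes known as targets of this response were not called on Low Protein in C57BL/6J M. Their log2 fold changes there were 0.39 for Slc7a1, 0.47 for Slc38a2, 0.50 for Slc7a5 and -0.18 for Slc3a2. Asns in C57BL/6J M livers had 9.65 to 25.4 CPM with a median of 17.3 on Low Protein. It had 1.68 to 16.0, median 8.18 on Medium Protein and 0.321 to 2.81, median 0.912 on Control. Every Low Protein liver of C57BL/6J M exceeded every Control liver.

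The genes whose log2 CPM most resembled each transporter over the 72 livers are named as a description, with Pearson r over all groups and without a p. Differences of strain, sex and diet, shared depth and shared scaling all enter these values, and 11459 named genes were compared. Slc7a2 was most like Asl (0.85), Slc38a4 (0.85) and Ass1 (0.84), the first and last being urea cycle enzymes that make arginine. Slc38a4 was most like Slc7a2 (0.85), Zfp385b (0.74) and Rbl2 (0.69), so these abundant carriers were among each other's nearest. Slc16a10 was most like Asl (0.82), Hgd (0.82), Nnmt (0.81), and Hgd is an enzyme of tyrosine breakdown.

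Slc3a2 was most like Cyp2c39 (0.88), Prelid2 (0.88), Srgap3 (0.87), and Slc38a3 most like Igfbp4 (0.77), Clcn2 (0.76), Pgpep1 (0.75). Among the 3 nearest to Slc1a2 were Rmdn3 (0.79) and Slc25a20 (0.79). The 3 nearest to Slc38a2 were Tnfrsf1b (0.81), Ifrd1 (0.78), Foxo1 (0.76). Those of Slc43a1 were Mpv17l (0.76), Urad (0.76), Slc25a48 (0.74). Of the scarce genes, Slc7a1 was most like Arhgef2 (0.74), Map4k4 (0.65), Adamts14 (0.61), and Mmp14 (0.63) and Il17rb (0.63) were among the 3 nearest to Slc7a5.

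The authors' deposited table holds diet comparisons for all 10 genes. In it 8 of 120 transporter comparisons had an adjusted p below 0.05, all of them in C57BL/6J M on Low Protein: the 4 against Medium Protein named above, and Slc7a2, Slc38a3, Slc38a4 and Slc43a1 against Control. Of the 17575 genes of the authors' deposited table, 6.97% passed the same threshold against Medium Protein and 10.9% against Control in those livers. In C57BL/6J F the shares were 2.41% and 4.17%, and in the remaining 8 comparisons they were 0% to 1.07%. Its headings name Control first, and its signs, checked against the counts, are of Low or Medium Protein over Control and of Low over Medium Protein. The authors' deposited table and the fit here gave 116 of 120 log2 fold changes the same sign.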

How the data were processed

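Liver polyA RNA of 72 mice was sequenced as stranded libraries, and per the labels' protocols 2 lanes were merged per library. The deposited gene table holds expected counts made by the authors with RSEM, per the submitters' processing notes, which also name R 3.4.3, edgeR and limma. Aligner, genome build and annotation were not given in the sources used here. In the authors' own deposited comparison table are log2 fold changes, p-values with adjusted p-values, and an F score for 17575 genes, and all 10 transporters are in it.

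Expected counts, of which 11.6% were not whole, were rounded, and genes with low counts were removed by edgeR's filter. Library totals were 26.9 to 38.4 M (median 32.4 M). A quasi-likelihood model of the 12 groups was fitted to 19362 genes with edgeR 4.0.16 in R 4.3.3 (TMM scaling, common biological coefficient of variation 0.207, 60 residual degrees of freedom), and p-values were adjusted by Benjamini-Hochberg over all genes. The fit was checked on counts simulated from the mean of each gene, the library sizes and the trend of the spread. That simulation held no outlying livers, so it does not bear on calls that depended on single livers.

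Alternatives were RLE size factors, library totals, no filter, DESeq2 1.42.0, limma-voom (limma 3.58.1), a fit to the compared groups only, a row letter term, leaving out libraries rich in ribosomal-like RNA, leaving out each liver and, added after the data were seen, a block of animal codes. The letter-and-number codes that name the count columns follow the order of the groups, so the row letter is partly confounded with group. Symbols, coordinates and exon lengths are of GENCODE M21, matched by Ensembl identifier for 51633 of 51912 genes. The members and gene lists were chosen with earlier results of these data known. All 10 transporters are named, and of each other list up to 3 called genes with the highest and 3 with the lowest fold change. Some genes of the likeness ranking are not reported here.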

Additional observations from a re-analysis of the deposited data

Results flagged for a closer look

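Of 120 groups of 6 livers, 10 genes in 12 groups, 9 had a highest or lowest liver that stood apart from the other 5 by Dixon's criterion, and chance flags about 1 in 20 groups. Slc7a1 was 3.88 CPM in C57BL/6J F Control replicate 1, and the next liver of its group had 1.59 CPM. This is the liver with few pericentral transcripts, which was also the lowest of its group for Slc1a2, at 93.3 CPM. Slc7a2 was 839 CPM in DBA/2J F Medium Protein replicate 3, above the next at 589.5 CPM. Slc3a2 was 24.7 CPM in C57BL/6J F Low Protein replicate 1, the liver with the high macrophage markers, above the next at 19.8 CPM.

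Slc38a4 was low in 2 livers, 962 CPM in C57BL/6J M Control replicate 2, below the next at 1062 CPM, and 705 CPM in DBA/2J M Low Protein replicate 5, below the next at 805 CPM. Slc1a2 was 388 CPM in C57BL/6J M Medium Protein replicate 3, above the next at 296 CPM. Slc43a1 was high in 2 livers, 8.23 CPM in C57BL/6J M Low Protein replicate 2, above the next at 4.17 CPM, and 16.1 CPM in C57BL/6J M Medium Protein replicate 5, above the next at 8.84 CPM. Slc16a10 was 138 CPM in DBA/2J F Low Protein replicate 6, above the next at 101 CPM.

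The Low Protein effect on Slc7a5 was called as different between strains in M, by -1.06 in log2 fold change, DBA/2J minus C57BL/6J (adjusted p = 0.0314, edgeR's quasi-likelihood test). The effects were -0.56 in DBA/2J and 0.50 in C57BL/6J, neither called by itself. This scarce gene's difference was called in 6 of 9 other settings and in 17 of 24 fits that left out 1 liver.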

How the results depend on the processing

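No log2 fold change of a transporter whose main value was called turned its sign under any alternative run. Over the other settings than leaving out a liver, 1914 of 1980 values kept their side of the threshold. Of the 243 values whose main value was called, 35 lost the call, and 31 other values gained one. Changes of sign among values called in neither fit were not counted. Over the fits that left out 1 liver, 3785 of 3840 values kept their side of the threshold. There 42 of 444 called values lost the call and 13 other values gained one. Counts of called transporters moved by more than 1.5 times in these cases, and the cause was not tested. The count for a difference of the Low Protein effect, 1 as reported, was 2 with library totals, and 0 with no filter, with limma-voom and without the ribosomal-like-rich libraries. Over all genes, library totals called 2611 for M minus F in C57BL/6J, where the main fit called 882. For DBA/2J minus C57BL/6J in M library totals called 995 genes and no filter 264, where the main fit called 558. For M against F on Control, 5 as reported, the count of called transporters was 12 with library totals and 3 with no filter. Over all genes, library totals called 8941 in C57BL/6J and 7288 in DBA/2J, and no filter 3028 and 2700. The main fit called 4021 and 3539 genes there. For Low Protein against Control, 3 as reported, DESeq2 gave 5, and for Low against Medium Protein, 4 as reported, the fit to the compared groups only gave 1. Over all genes, DESeq2 called 2120 for Low Protein against Control in C57BL/6J M and 884 in C57BL/6J F. The main fit called 1894 and 629 there. Leaving out 1 liver gave 3 to 4 calls for Low Protein against Control, 0 to 0 for Medium Protein, 3 to 3 for the mean Low Protein effect and 0 to 0 for the mean Medium Protein effect. It gave 0 to 1 for the difference of the Low Protein effect, 3 to 6 for M against F, 8 to 12 for strain (11 as reported) and 4 to 4 for Low against Medium Protein. Under library totals the median of all genes was -0.35 for M against F in C57BL/6J and -0.29 in DBA/2J, with 5.32% and 7.59% of called genes higher in M, where TMM gave 55.8% and 57.1%. Relative to that median the 27 called values moved by at most 0.013 and all 27 kept their sign. The animal codes in the titles do not recur between the diets of a strain and sex, so no paired fit of those diet comparisons was possible, but 16 codes recur across strains, sexes or both. DBA/2J F livers carry a separate series of code numbers and share none with other groups, so series and group cannot be told apart there. Pairs of livers with 1 code deviated from their group means with correlations over genes of -0.12 to 0.13, and 3 of 26 pairs were over 0.1. Livers with different codes were not correlated in this way, so these values do not decide whether the codes pair livers. With these codes as a replicate block, a fit added after the data were seen, the calls were 3 for Low Protein against Control, 4 for Low against Medium Protein, 2 for the mean Low Protein effect, 1 for the difference of that effect, 5 for M against F, 9 for strain and 0 for Medium Protein. Precision is limited for Slc7a1, Slc7a5 and Slc43a1, whose medians were 1.39, 1.91 and 7.98 CPM.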
